A study of Mus musculus with 12 samples.

Results

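Contactins and contactin-associated proteins were followed as a family of 10 genes, Cntn1 to Cntn6, Cntnap1, Cntnap2, Cntnap4 and Cntnap5a, taken by symbol from a table of raw exon counts for 23893 genes. All 10 symbols were found, and each had counts in at least 1 library of every group. The counts came from cortical neuron cultures prepared from C57BL6/J mouse embryos (E13.5 to 15.5). Per the study's methods every culture carried Top1fl/fl alleles, including the controls that the labels call wild-type. A lentivirus whose CaMKIIα promoter limits expression to neurons delivered tdTomato alone (WT) or tdTomato-P2A-CRE (Top1 cKO) at day in vitro (DIV) 3, with a stated transduction of 85 to 90%. At DIV 15 the cells received vehicle (0.003% DMSO) or 300 nM topotecan in the same vehicle, and RNA was taken 3 days later. This gave the vehicle groups WT-Veh and Top1 cKO-Veh and the drug groups WT-Topot and Top1 cKO-Topot, with 3 libraries each. Topotecan traps topoisomerase 1 (TOP1) on DNA, whereas the deletion removes the enzyme from cells that express CRE. The groups set these interventions side by side.

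Contactins are neuronal adhesion molecules of the immunoglobulin superfamily, built of immunoglobulin and fibronectin type III domains and held in the membrane by a lipid (GPI) anchor. Contactin-associated proteins (Casprs) are transmembrane relatives of the neurexins. At nodes of Ranvier, contactin-1 and Caspr (Cntnap1) form the axonal side of the paranodal junction with glial neurofascin, while contactin-2 (TAG-1, Cntn2) and Caspr2 (Cntnap2) gather Kv1 potassium channels next to it. In neurons without myelin the same proteins act in axon growth, axon initial segment organization and synapse formation.

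The 10 genes differed in size by 2 orders of magnitude in the GENCODE models for the NCBIM37 build (mm9). Cntnap1 (chr11:101031837-101052038, 20.2 kb) and Cntn2 (chr1:134406002-134439517, 33.52 kb) were under 100 kb, the length above which the study calls a gene long. Cntn1 (chr15:91881596-92172398), Cntn3 (chr6:102113300-102414661), Cntnap4 (chr8:115093943-115406617) and Cntn6 (chr6:104442784-104813400) spanned 290.8 to 370.6 kb. Cntnap5a (chr1:117581333-118478603) spanned 897.3 kb, Cntn4 (chr6:105627654-106649304) 1022 kb, Cntn5 (chr9:9660891-10904775) 1244 kb and Cntnap2 (chr6:45010060-47251368) 2241 kb. The processed messages were far more alike, since the longest transcripts of all 10 had 21 to 26 exons. The added length was intron, and the longest intron of Cntnap2 alone covered 593.6 kb.

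**Figure D1:**
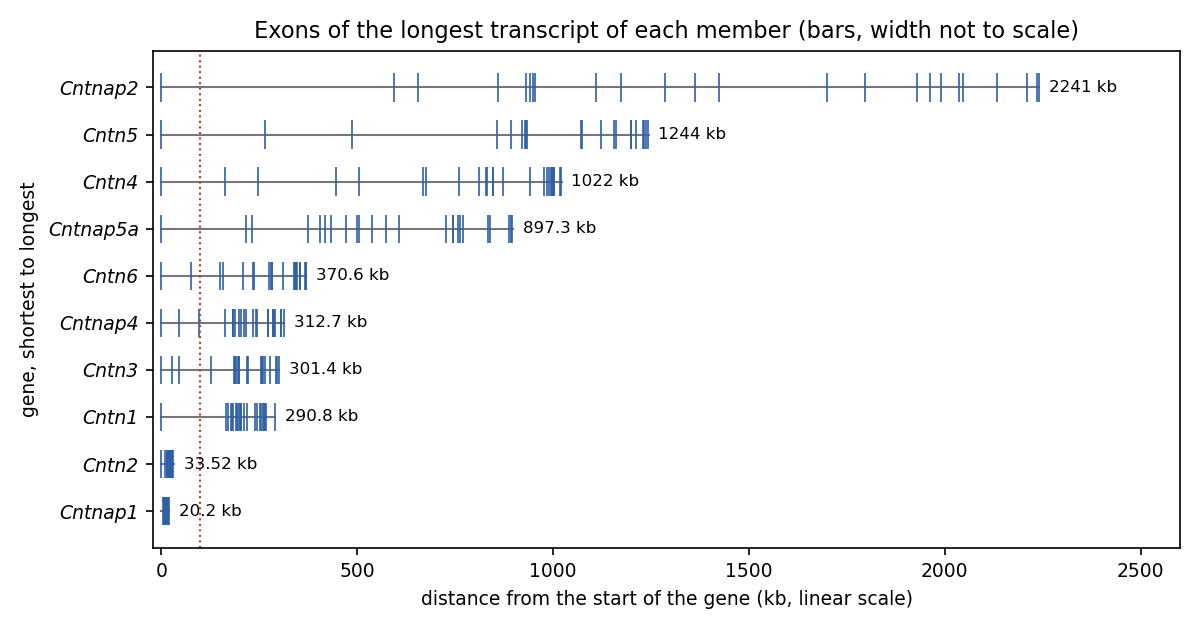
Each gene drawn to scale from its start (x axis, kb), shortest at the bottom; vertical bars mark the exons of the longest transcript, and the dotted line stands at 100 kb. Cntnap1 and Cntn2 end left of that line, and Cntnap2 reaches 2241 kb with a similar number of exons.

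The sequences just upstream of 3 genes that carry the results are printed because the results turn on these genes most: Cntn1, the most abundant contactin, Cntn2, the member that rose, and Cntnap2, the member with the fewest counts under topotecan. They are the 250 bases before a start site in the RefSeq promoter table (GRCm38.p6), each matched at 1 place in NCBIM37, whose coordinates are given. They read 5′ to 3′ on the gene's strand with CpG pairs in capitals.
Cntn1, chr15:91881346-91881595, plus strand: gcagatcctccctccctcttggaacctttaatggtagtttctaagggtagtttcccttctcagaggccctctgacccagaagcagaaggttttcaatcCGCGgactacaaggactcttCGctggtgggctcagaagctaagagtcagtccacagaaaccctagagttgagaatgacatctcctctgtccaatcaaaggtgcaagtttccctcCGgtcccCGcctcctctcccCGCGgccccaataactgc
Cntn2, chr1:134439518-134439767, minus strand: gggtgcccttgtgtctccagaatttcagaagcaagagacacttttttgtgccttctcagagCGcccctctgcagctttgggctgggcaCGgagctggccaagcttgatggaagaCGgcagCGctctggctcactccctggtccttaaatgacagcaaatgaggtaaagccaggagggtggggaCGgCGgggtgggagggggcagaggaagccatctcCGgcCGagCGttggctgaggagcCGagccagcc
Cntnap2, chr6:45009810-45010059, plus strand: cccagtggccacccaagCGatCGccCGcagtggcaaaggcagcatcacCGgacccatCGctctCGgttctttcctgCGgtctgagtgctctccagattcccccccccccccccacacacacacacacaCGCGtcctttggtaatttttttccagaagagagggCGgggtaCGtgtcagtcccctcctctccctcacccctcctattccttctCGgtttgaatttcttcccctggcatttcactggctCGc
Cntnap2, internal start, chr6:47194145-47194394, plus strand: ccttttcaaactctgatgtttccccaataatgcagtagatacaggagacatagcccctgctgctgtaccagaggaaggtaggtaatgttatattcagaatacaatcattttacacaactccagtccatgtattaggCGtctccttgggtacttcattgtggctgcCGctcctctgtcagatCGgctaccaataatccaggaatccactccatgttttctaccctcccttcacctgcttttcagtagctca
The windows of Cntn1, Cntn2 and the distal Cntnap2 start held 7, 10 and 13 CpG pairs, against a median of 6 over 32851 windows of the same length. The internal Cntnap2 window lay 2184335 bp downstream of the first start and held 3. A coding transcript of 55.17 kb (chr6:47194401-47249569) is annotated from just past its end, which would be a short gene by the 100 kb limit. Gene-level exon counts do not separate reads of the short transcript from those of the long one. GGGCGG, the GC box, was searched on both strands and occurred in the distal Cntnap2 window and in neither the Cntn1 nor the Cntn2 window, and 32.7% of all windows held it. The table matched 7 of the 10 members, and those without an entry were Cntnap1, Cntnap4 and Cntnap5a.

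The 12 libraries held 1730164 to 4583777 counts. At this depth, a floor of 3 counts in a library corresponded to 0.687 to 1.73 CPM (counts relative to TMM-scaled library size), which matters for the weakly expressed members. Top1 itself fell from 117.0 to 163.5 CPM in WT-Veh to 27.1 to 44.0 CPM in Top1 cKO-Veh. WT-Topot held 129.4 to 139.7 CPM of it, a log2 fold change of −0.01 against WT-Veh (95% interval −0.41 to 0.38). Top1 cKO-Topot held 28.4 to 37.5 CPM, so Top1 counts remained in both Top1 cKO groups. The study attributes residual TOP1 protein most likely to uninfected neurons, non-neuronal cells or both. The part of this residue in the drug effects in Top1 cKO cultures was not tested. Neuronal markers (Tubb3, Map2, Rbfox3, Snap25 and Stmn2) summed to 3595 to 5193 CPM in WT-Veh, 3204 to 3891 in WT-Topot, 4117 to 5435 in Top1 cKO-Veh and 4110 to 5275 in Top1 cKO-Topot. Rbfox3 (log2 fold change −0.96) was called lower in WT-Topot than in WT-Veh, and Rbfox3 and Snap25 were lower there than in both Top1 cKO groups. The summed ranges of WT-Veh and WT-Topot overlapped. The Tubb3 mean was higher in WT-Topot (548.4 against 402.4 CPM), those of Map2, Snap25 and Stmn2 were lower, and none of these was called. Astrocyte markers were present too, and the summed level of 6 such genes was 937.0 to 2756 CPM in WT-Veh, 314.3 to 662.5 in WT-Topot, 870.8 to 2999 in Top1 cKO-Veh and 309.1 to 1007 in Top1 cKO-Topot. Of these genes Gfap and Slc1a3 were called lower in WT-Topot than in either vehicle group, and none was at 0 in a group. In bulk RNA, fewer cells of a type and less RNA per cell cannot be told apart. The part of astrocyte RNA and of the differences in Rbfox3 and Snap25 in the results below was not tested. Of 10 oligodendrocyte lineage markers Mag, a myelin gene, was at 0 in every library, and the list summed to 98.5 to 297.6 CPM.

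In vehicle-treated WT neurons the family was dominated by Cntn1. Per kilobase of exon, its level was 70.1 ± 6.0 CPM per kb (SD, n = 3), followed by Cntnap1 at 18.5 ± 6.1. The exon length is that of all GENCODE exons of a gene joined, whereas the reads were counted over RefSeq exons. Cntn3 (7.16 ± 3.31), Cntnap4 (5.21 ± 1.01) and Cntn2 (5.04 ± 0.44) came next, and the libraries of neighbours in this order overlapped. Their order depends on the exon length, since the means without it were 37.3, 32.8 and 48.1 CPM. Cntn5 (2.06 ± 0.90), Cntnap5a (1.90 ± 0.85), Cntnap2 (1.52 ± 0.49) and Cntn4 (1.49 ± 0.36) formed a lower group that also overlapped from each gene to the next. Cntn6 was the lowest at 0.595 ± 0.310 CPM per kb. The 4 members of 897.3 kb and more were thus all among the 5 lowest, with 12 to 37 raw counts in a WT-Veh library.

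**Figure D2:**
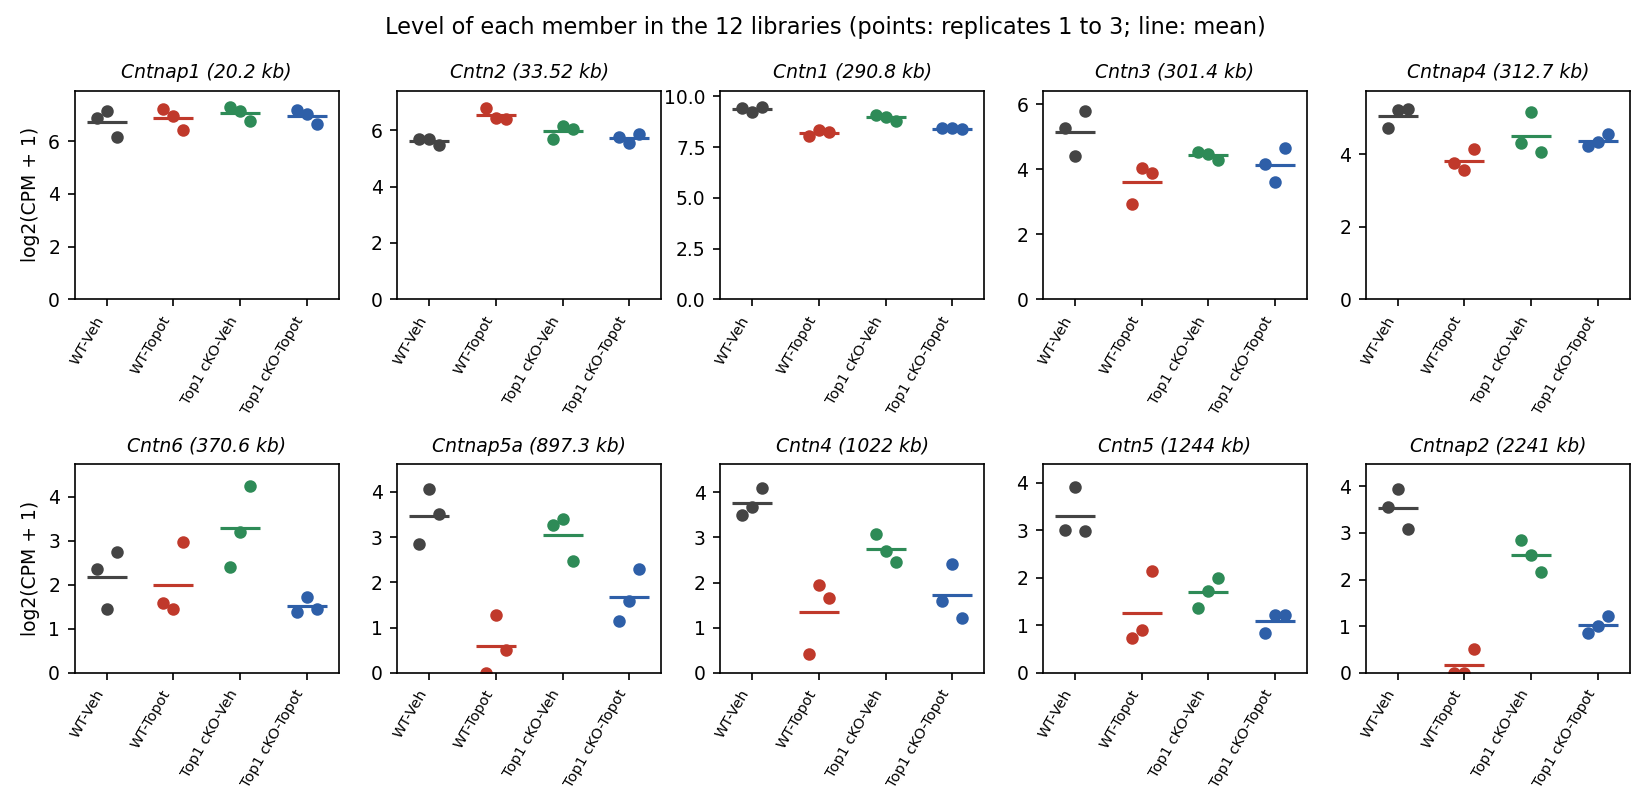
Level of each gene (log2(CPM + 1), y axis) in the 12 libraries, grouped by genotype and drug, with panels ordered by gene length; points are replicates 1 to 3 from left to right and lines are means. WT-Topot points lie below all WT-Veh points for 7 genes, above them for Cntn2, and among them for Cntnap1 and Cntn6.

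Topotecan in WT neurons lowered 7 of the 10 members and raised 1. Members past an FDR of 0.01 (edgeR quasi-likelihood test, Benjamini-Hochberg over all 23893 genes) were lower for Cntn1, Cntn3, Cntn4, Cntn5, Cntnap2, Cntnap4 and Cntnap5a and higher for Cntn2. Over all genes 2.04% were called lower and 0.682% higher, and the share called lower was 3.56% of the 13720 genes that averaged 1 CPM or more and 18% of the 1955 such genes over 100 kb. The median log2 fold change was −1.46 over the members, 0.03 over those 13720 genes and −0.43 over those longer than 100 kb. The same 7 members lay wholly below their vehicle libraries and Cntn2 wholly above, as did 13.2% and 12.9% of the 13720 genes.

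Cntn1, the partner of Caspr and a receptor for several extracellular ligands, showed this in the deepest counts. It stood at 686.1, 595.6 and 700.9 CPM in WT-Veh replicates 1, 2 and 3 and at 263.7, 327.7 and 301.1 CPM in WT-Topot. Every treated library lay under every control, and the log2 fold change was −1.15 ± 0.17 (SE; edgeR adjusted p = 0.000148). Cntnap2, which encodes Caspr2 and is linked to epilepsy and autism in people, had 37, 33 and 13 counts in WT-Veh and 0, 0 and 1 in WT-Topot. All 3 treated libraries were under the 3-count floor. Summed over libraries and scaled to depth, WT-Veh exceeded WT-Topot by a ratio of 98.4 with an exact 95% counting interval of 17.2 to 3932 (edgeR adjusted p = 2.67e-05). That single count is the sum over transcripts from both annotated starts.

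Cntnap5a, a little-studied Caspr, fell from 6.14, 15.8 and 10.4 CPM in WT-Veh to 0, 1.43 and 0.428 CPM. That is 75 counts against 6, and the log2 fold change was −3.90 ± 0.66 (edgeR adjusted p = 0.000796). Cntn4 and Cntn5 are contactins that help form specific circuits, in the olfactory and accessory optic system and in the retina. Cntn4 went from 10.2, 11.8 and 16.1 CPM to 0.335, 2.86 and 2.14 CPM (log2 fold change −2.77 ± 0.51, edgeR adjusted p = 0.00181). Cntn5 went from 7.02, 14.03 and 6.91 CPM to 0.670, 0.859 and 3.43 CPM (−2.56 ± 0.58, edgeR adjusted p = 0.00975). Neither pair of groups overlapped. In raw counts WT-Topot held 1, 10 and 5 of Cntn4, 2, 3 and 8 of Cntn5, and 0, 5 and 1 of Cntnap5a. At or under the 3-count floor were 1 of these libraries for Cntn4, 2 for Cntn5 and 2 for Cntnap5a.

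The members near 300 kb had smaller fold changes. Cntn3 was at 37.2, 20.2 and 54.7 CPM in WT-Veh and at 6.70, 15.5 and 13.7 CPM in WT-Topot, a log2 fold change of −1.62 ± 0.35 (edgeR adjusted p = 0.00794). Cntnap4, a Caspr known from interneuron synapses, was at 25.5, 35.9 and 36.9 CPM and then at 12.4, 10.9 and 16.7 CPM (−1.29 ± 0.28, edgeR adjusted p = 0.00843). None of 10 interneuron markers passed the test in this comparison. Their summed level was 814.2 to 1780 CPM in WT-Veh and 576.1 to 1055 CPM in WT-Topot. Mean Gad1 went from 449.2 to 215.4 CPM and mean Gad2 from 428.7 to 215.1 CPM. Means of Slc32a1, Sst, Npy, Pvalb and Vip were lower too, and those of Lhx6, Dlx1 and Dlx2 higher. With Top1 cKO-Veh as reference, WT-Topot was called lower for Gad2 (log2 fold change −1.11, edgeR adjusted p = 0.00122). Between the drug groups, Gad2 was called higher in the Top1 cKO cells (0.82, edgeR adjusted p = 0.00683). The part of interneuron RNA in the Cntnap4 result was not tested.

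Cntn2 moved the other way. This axonal contactin, best known on growing axons and at juxtaparanodes, had 50.6, 50.4 and 43.2 CPM in WT-Veh and 110.3, 85.0 and 83.1 CPM in WT-Topot. The groups did not overlap, with a log2 fold change of 0.95 ± 0.20 (edgeR adjusted p = 0.00615). Cntnap1, the shortest member, was at 116.2, 139.8 and 69.7 CPM and at 148.1, 122.8 and 84.8 CPM. Its groups overlapped and the 95% interval of the log2 fold change ran from −0.38 to 0.63. The antisense neighbour Plekhh3 shares 233 bp of exon with Cntnap1, and without strand in the counting their reads cannot be told apart there.

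Cntn6 was the long member that did not pass the test. It had 14, 4 and 10 counts in WT-Veh and 6, 6 and 16 in WT-Topot, with overlapping groups and a log2 fold change of −0.16 (95% interval −1.43 to 1.11). At 28 counts in each group, a fall as deep as that of Cntn4 lay outside the interval. Of the members nearer to it in length, the falls of Cntn1 (−1.15) and Cntnap4 (−1.29) lay inside the interval and that of Cntn3 (−1.62) outside. These counts therefore do not separate Cntn6 from Cntn1 and Cntnap4. Cntn3, Cntn6 and Cntn4 are neighbours within 4.54 Mb of chromosome 6, and the 1 other protein-coding gene between them in the annotation is Chl1, an L1-type adhesion gene. In the order along the chromosome the log2 fold changes were −1.62 for Cntn3, −0.50 for Chl1 (edgeR adjusted p = 0.160, and 0.000197 with the replicate number as a block, which called it lower), −0.16 for Cntn6 and −2.77 for Cntn4.

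Leaving out WT-Topot replicate 1 reduced the count from 8 to 4 members. The calls of Cntn1, Cntn4, Cntnap2 and Cntnap5a held in all 6 fits without 1 library. Cntn2 lost its call without WT-Veh replicate 1 or 2 or WT-Topot replicate 1, Cntn3 without WT-Topot replicate 1, and Cntn5 and Cntnap4 without WT-Veh replicate 2 or WT-Topot replicate 1 or 2.

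**Figure D3:**
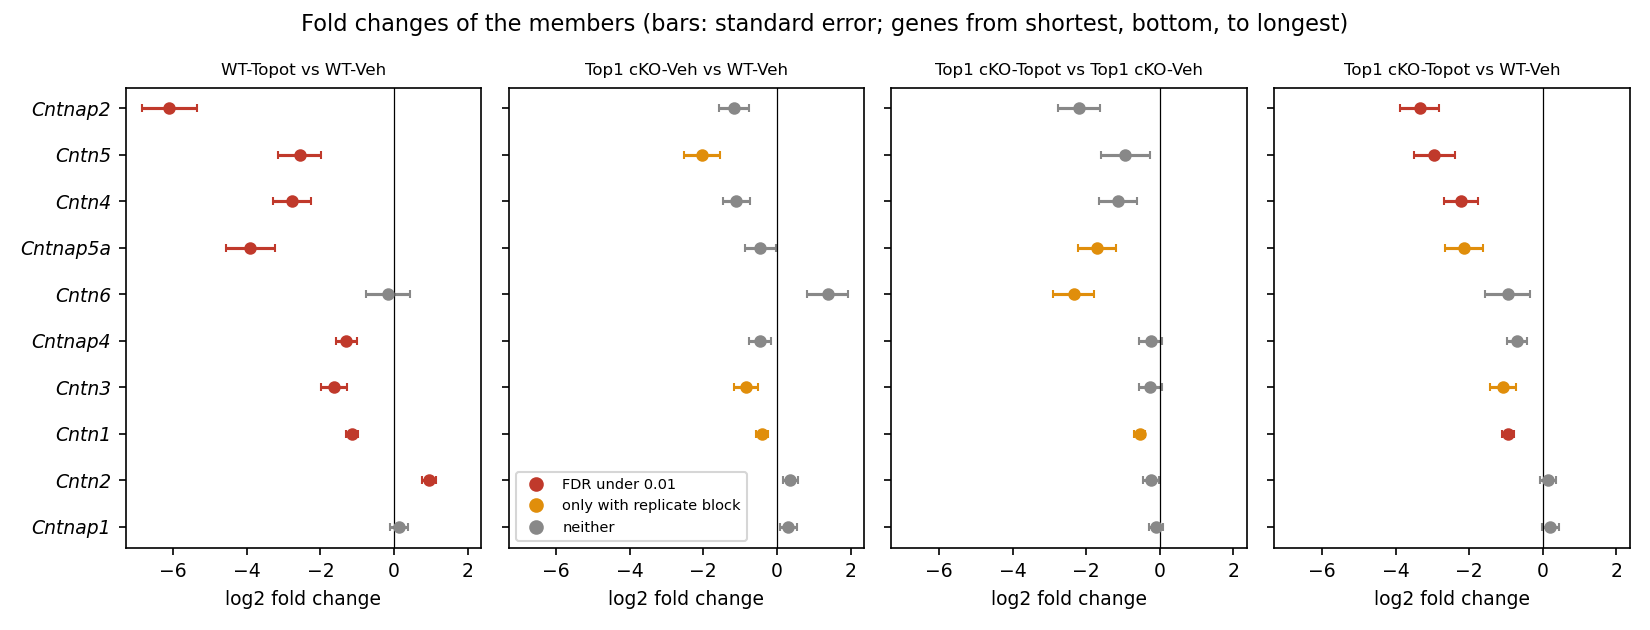
Log2 fold change (x axis) with its standard error for each gene, shortest at the bottom, in 4 comparisons; red marks an FDR under 0.01, orange a call made when replicate number enters as a block, grey neither. The left panel holds 8 red points, and Cntn2 is the one to the right of 0.

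Within the family, longer genes had the more negative fold changes. Spearman's rho between length and log2 fold change was −0.85 over the 10 genes, which share libraries and depth and are given as a description. Genes of all kinds also declined with length, to a median of −1.65 in the last bin of 200 genes (median length 503.9 kb), and 4 members were longer than that. The makeup of the family's RNA also differed between groups. Cntn1 alone supplied 66.2 to 73.6% of the family's counts in WT-Veh and 48.5 to 58.7% in WT-Topot. Cntnap1 and Cntn2 together supplied 11.9, 17.5 and 21.1% of all counts of the 10 genes in the WT-Veh libraries and 32.7, 36.5 and 47.5% in WT-Topot. Their share was 24.9 to 26.4% in Top1 cKO-Veh and 29.0 to 33.6% in Top1 cKO-Topot. WT-Topot stood apart from WT-Veh by 22.1 percentage points, with an exact permutation p of 0.10, which is the smallest that 3 against 3 libraries allow (0.12 adjusted over 6 comparisons, two-sided).

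**Figure D4:**
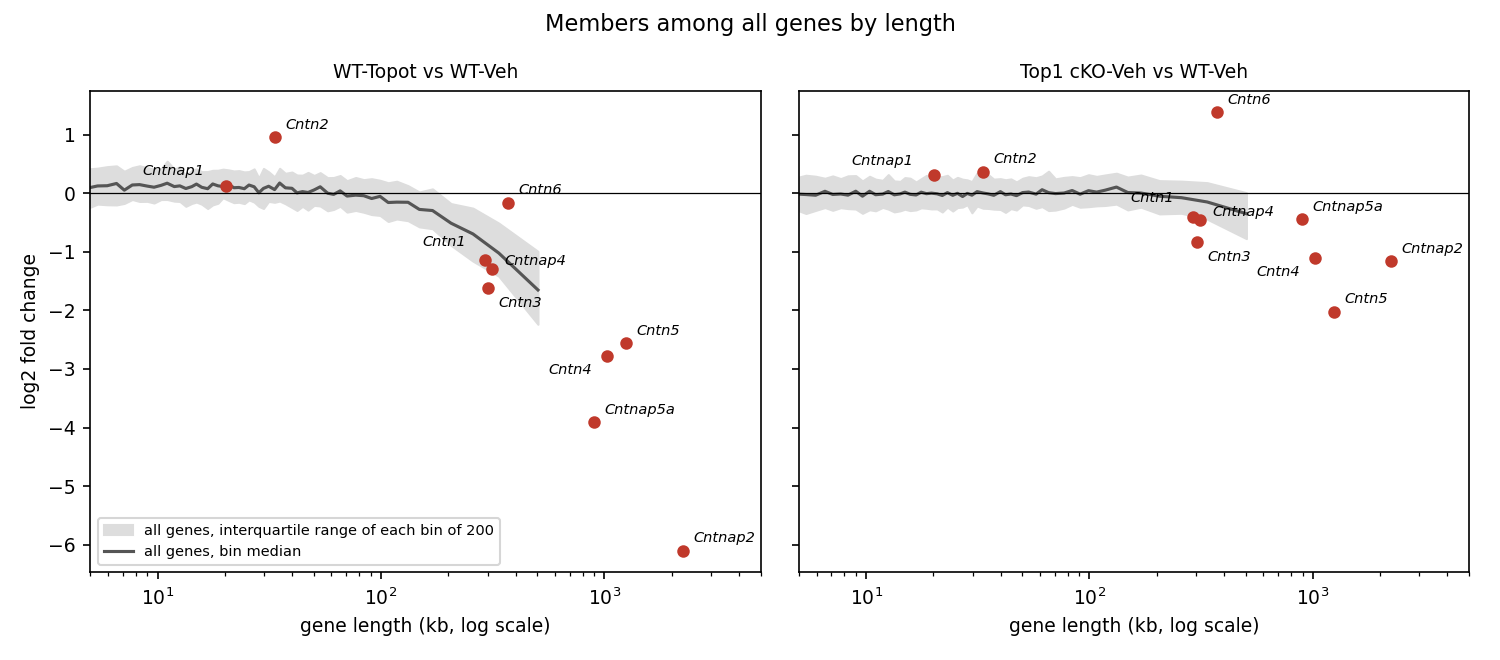
Log2 fold change (y axis) against gene length (x axis, log scale) for the 10 members (red) over the median and interquartile range of all genes in bins of 200 (grey), for topotecan in WT cells and for Top1 deletion. Under topotecan the members run from 0.95 for Cntn2 down to −6.10 for Cntnap2, and under deletion from 1.38 for Cntn6 to −2.02 for Cntn5.

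Top1 deletion without drug gave smaller fold changes for most members. No member was called in Top1 cKO-Veh against WT-Veh by edgeR's quasi-likelihood test, while 5 were lower and 1 higher at an unadjusted p under 0.05, as were 4.82% and 3.9% of all genes, and neither DESeq2 nor edgeR's exact test called one. Over all genes 0.126% were called lower and 0.046% higher. Same-numbered libraries deviated together, and with the replicate number as a block Cntn1, Cntn3 and Cntn5 were called lower, where 2.95% of all genes were.

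Cntn5 had the deepest of these falls, from 7.02, 14.03 and 6.91 CPM in WT-Veh to 1.56, 2.29 and 3.01 CPM in Top1 cKO-Veh. The groups did not overlap (log2 fold change −2.02 ± 0.49, edgeR adjusted p = 0.0769 without and 7.06e-05 with the block). Cntn1 was at 545.9, 505.9 and 446.9 CPM, under each WT-Veh library (−0.40 ± 0.16, edgeR adjusted p = 0.425 without and 0.00181 with the block). Cntn3 was at 22.3, 21.1 and 18.5 CPM, overlapping WT-Veh (−0.84 ± 0.31, edgeR adjusted p = 0.368 without and 0.00886 with the block).

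The longest member, Cntnap2, had 6.26, 4.81 and 3.51 CPM after deletion, apart from its 7.49 to 14.5 CPM in WT-Veh, with a log2 fold change of −1.16 (95% interval −2.02 to −0.30, edgeR adjusted p = 0.295, and 0.0127 with the block). Cntn4 was likewise under each WT-Veh library at 7.43, 5.50 and 4.51 CPM and past neither threshold. Cntn6, a contactin of cerebellar and cortical wiring, had the opposite sign, with 4.30, 8.24 and 18.0 CPM against 1.75 to 5.76 CPM. Its log2 fold change of 1.38 (edgeR adjusted p = 0.418) fell to 0.75 without Top1 cKO-Veh replicate 3, which held the highest level.

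Cntnap2 and Cntnap5a were lower under the drug than under the deletion when these were compared directly. In WT-Topot against Top1 cKO-Veh the edgeR adjusted p was 0.00295 for Cntnap2, with 1 count against 44, and 0.00572 for Cntnap5a, with 6 against 73. Over all genes 1.23% were called lower and 0.293% higher there. Both calls were lost without WT-Topot replicate 1 (edgeR adjusted p = 0.0122 and 0.0156) and without Top1 cKO-Veh replicate 2 (0.0115 and 0.0335), and that of Cntnap5a without WT-Topot replicate 3 (0.0208). Cntn1, at a log2 fold change of −0.75, stood just over the threshold (edgeR adjusted p = 0.0109) and was called lower with RLE size factors, DESeq2, the exact test and all 12 libraries (adjusted p = 0.000176 to 0.0094). The block added Cntn1 and Cntn6 as lower and Cntn2 as higher, against 4.8% of all genes lower and 2.93% higher. Cntn5, by contrast, was at 0.670 to 3.43 CPM under the drug and 1.56 to 3.01 CPM under the deletion, which overlapped (95% interval of the log2 fold change −2.01 to 0.95).

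In Top1 cKO cells topotecan brought no member past the threshold without the block. All 10 fold changes were negative, but those of Cntnap1 and Cntnap4 reached 0.0265 and 0.19 without 1 library. The median log2 fold change was −0.74 over the members and −0.13 over the 1955 expressed genes longer than 100 kb. Over all 13720 genes averaging 1 CPM or more it was −0.0003. By edgeR's quasi-likelihood test 5 members were lower at an unadjusted p under 0.05, as were 2.62% of all genes. That test called 0.00837% of all genes lower and 0% higher. Neither DESeq2 nor edgeR's exact test called a member. DESeq2 gave Cntn4, Cntn5, Cntn6, Cntnap2 and Cntnap5a no adjusted p here and could not have called them. With the block Cntn1, Cntn6 and Cntnap5a were called lower, as were 1.74% of all genes. Cntn1 was at 349.3, 340.7 and 329.6 CPM in Top1 cKO-Topot, clear of the 446.9 to 545.9 CPM of Top1 cKO-Veh (log2 fold change −0.54 ± 0.15, edgeR adjusted p = 0.374 without and 6.02e-08 with the block).

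Cntn6 was at 1.59, 2.32 and 1.75 CPM against 4.30 to 18.0 CPM in Top1 cKO-Veh (−2.34 ± 0.55, edgeR adjusted p = 0.189 without and 1.95e-05 with the block), and it was called without Top1 cKO-Veh replicate 1 (edgeR adjusted p = 0.00166). For Cntnap5a, 8.60, 9.62 and 4.51 CPM became 1.19, 1.99 and 3.93 CPM (−1.70 ± 0.51, edgeR adjusted p = 0.520 without and 0.00324 with the block). Cntnap2 went from 16, 21 and 7 counts to 2, 3 and 3. Those were all at or under the 3-count floor, and the depth-scaled ratio of Top1 cKO-Veh to Top1 cKO-Topot was 4.82 (exact 95% counting interval 2.24 to 11.8, edgeR adjusted p = 0.309 without and 0.0116 with the block).

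Against vehicle-treated WT-Veh, 1.21% of all genes were called lower and 0.473% higher in Top1 cKO-Topot. The combination of deletion and drug lowered 4 members, Cntn1, Cntn4, Cntn5 and Cntnap2. The edgeR adjusted p values were 0.00142, 0.00789, 0.00281 and 0.000479. Cntn1 and Cntnap2 kept their calls in all 6 fits without 1 library. Cntn4 lost it without WT-Veh replicate 2 or Top1 cKO-Topot replicate 1 or 3, with filterByExpr (edgeR adjusted p = 0.0184) and in the fit of all 12 libraries (0.0125), and Cntn5 without WT-Veh replicate 2 or Top1 cKO-Topot replicate 2. The block added Cntn3 and Cntnap5a, with 4.02% of all genes lower. Cntn2 was at 53.4, 46.2 and 57.7 CPM there and overlapped WT-Veh (95% interval of the log2 fold change −0.31 to 0.60).

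Whether topotecan acted differently in WT and Top1 cKO cells was tested as an interaction over the 12 libraries. No member passed (0.398% of all genes were called higher and 0.0377% lower). By edgeR's quasi-likelihood test 6 members were higher and 2 lower at an unadjusted p under 0.05, against 4.57% and 3.65% of all genes. DESeq2 called Cntn2 and gave no adjusted p for Cntn4, Cntn5, Cntn6, Cntnap2 and Cntnap5a. With the block Cntn1 and Cntn2 passed, against 2.44% of all genes higher and 1.53% lower. For Cntn1 the fall under topotecan was smaller in Top1 cKO cells by 0.59 ± 0.14 on the log2 scale with the block (edgeR adjusted p = 0.00387, and 0.252 without it). For Cntn2, which rose in WT cells, Top1 cKO-Topot overlapped the 50.1 to 70.8 CPM of Top1 cKO-Veh. The difference between the drug effects was −1.20 ± 0.23 with the block (edgeR adjusted p = 0.00021, and 0.0316 without it).

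**Figure D5:**
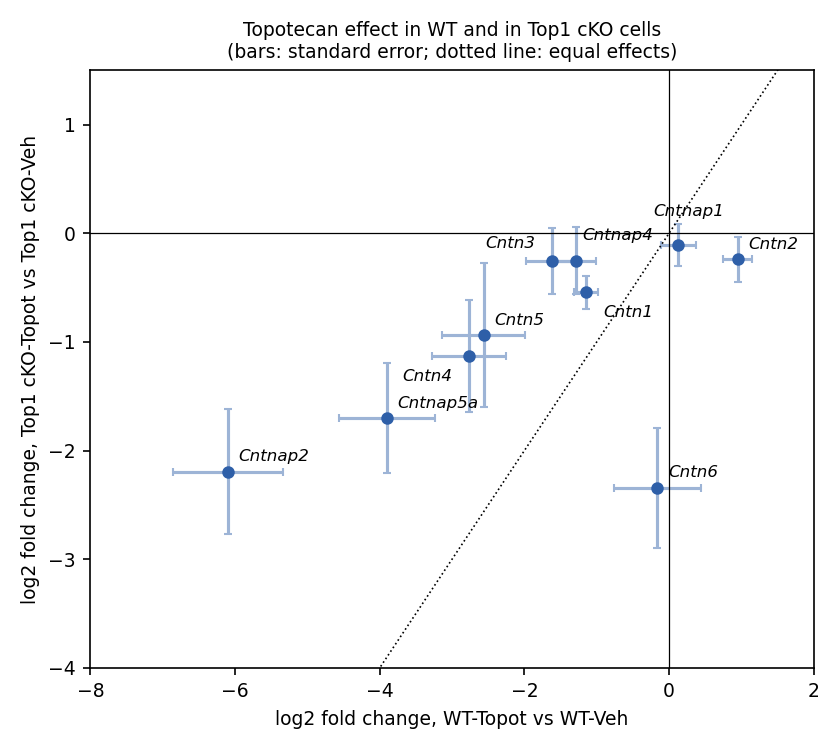
Log2 fold change under topotecan in Top1 cKO cells (y axis) against that in WT cells (x axis) for the 10 genes, with standard errors; the 2 axes use different libraries, and the dotted line marks equal effects. The 7 genes that fell in WT cells lie above the line, Cntn2 sits right of 0 at 0.95 and below 0 at −0.24, and Cntn6 is low on the y axis alone.

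Between the topotecan-treated groups, Cntn2 stood at 46.2 to 57.7 CPM in Top1 cKO-Topot and at 83.1 to 110.3 CPM in WT-Topot, with no overlap. Its log2 fold change of −0.83 ± 0.20 stood at an edgeR adjusted p of 0.0107, just over the threshold, and at 2.52e-05 with the block, where 4.08% of all genes were lower. Without the block 1.03% of all genes were lower and 1.46% higher. DESeq2 (adjusted p = 0.0043) and edgeR's exact test (adjusted p = 0.00361) called it as well. Cntnap2 had 8 counts in Top1 cKO-Topot against 1 in WT-Topot, a depth-scaled ratio of 9.03 with an exact 95% counting interval of 1.21 to 401 (edgeR adjusted p = 0.308). This comparison shares its libraries with those above.

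Proteins that bind contactins and Casprs, or anchor them, were taken as a list of 19 genes: ligands and co-receptors, cytoskeletal anchors and channel partners. Topotecan in WT cells lowered 6 of them and raised none by edgeR's quasi-likelihood test. By that test 2.04% of all genes and 18% of the expressed genes over 100 kb were lower. All 6 were 187.4 to 688.5 kb long, but Adam22 (295.8 kb) and Chl1 (238.8 kb) lay in that range and were not called. Entering the block called Chl1 lower but not Adam22 (edgeR adjusted p = 0.000197 and 0.0512). The adhesion gene L1cam was higher at an unadjusted p under 0.05, as were 5.88% of all genes. With the block 9 were lower and L1cam was higher (log2 fold change 0.63), against 5% and 3.24% of all genes. Ptprg, a receptor phosphatase that binds contactins 3 to 6, fell from 155.0 ± 40.1 to 31.1 ± 8.7 CPM (SD, n = 3; log2 fold change −2.31, edgeR adjusted p = 3.76e-06). Nrcam, an L1-type adhesion molecule and contactin ligand, fell from 606.1 ± 76.8 to 167.6 ± 37.3 CPM (−1.85, edgeR adjusted p = 2.99e-06).

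Ank3, ankyrin-G of the axon initial segment, fell from 197.7 ± 52.4 to 50.9 ± 11.97 CPM (−1.95, edgeR adjusted p = 1.19e-05). The others were App (−1.05), a contactin-binding membrane protein, Cask (−1.36), a scaffold that binds Caspr2, and Tnr (−1.58), the matrix ligand tenascin-R. The Kv1 channel genes Kcna1 (−0.38) and Kcna2 (−0.27) and Nfasc (−0.39), which encodes neurofascin, did not pass. Between the treated groups 6 partners stood higher in the Top1 cKO cells than in the WT cells by the same test, where 1.46% of all genes were, and L1cam was lower (−0.83). These were Tnr (log2 fold change 2.003), Ptprg (1.59), Cask (1.20), Ank3 (1.03), Nfasc (0.87) and App (0.84). Nfasc and Ank3 lost the call in some fits without 1 library (highest edgeR adjusted p 0.0518 and 0.0149, both without Top1 cKO-Topot replicate 2), and L1cam with filterByExpr (0.0120). With the block 9 were higher and L1cam lower, against 4.6% and 4.08% of all genes.

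Of the list's 19 members, Nrcam, Ptprg and Ank3 also passed the interaction test, each falling less in Top1 cKO cells (differences of 1.36, 1.95 and 1.81 on the log2 scale, edgeR adjusted p = 0.00653, 0.0024 and 0.00388). Nrcam and Ank3 lost that call in some fits without 1 library (highest adjusted p 0.0218 in the absence of WT-Topot replicate 1 for Nrcam and 0.0127 in that of replicate 3 for Ank3), and Ptprg kept it in all of them.

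The genes whose levels tracked the most abundant members best over the 12 libraries were found by Pearson's correlation of log2(CPM + 1). Cntn1 was closest to Kcnip4 (r = 0.98), Opcml (0.98) and Syt1 (0.98), genes of 1135, 1135 and 513.3 kb. Cntnap1 was closest to Nfic (0.93), Xylt2 (0.93) and Fam151a (0.92), and Cntn2 to Cdipt (0.91), Arl6ip1 (0.90) and Thap6 (0.90), all of them under 40 kb. The correlations span the 4 groups and share their libraries, and are given as a description.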

How the data were processed

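Poly(A) RNA of 12 cultures (4 groups, 3 libraries each) was sequenced by the authors as 50 bp paired-end reads, filtered with TagDust, aligned to mm9 with TopHat and freed of rRNA reads, and the deposited values are their raw counts over RefSeq exons, summed by gene symbol. The counting program, its use of strand, the RefSeq release and the tool versions are not given in the sources used here. Counts for the 10 genes were fitted within the whole table of 23893 genes with edgeR 4.0.16 in R 4.3.3 (TMM scaling, no filter, glmQLFit and glmQLFTest, 6 libraries per comparison, all 12 for the interaction, Benjamini-Hochberg, FDR 0.01); SE is the log2 fold change divided by the root of F. The study's methods name edgeR but not the test within it. Alternatives were RLE size factors, filterByExpr, DESeq2 1.42.0, edgeR's exact test, the replicate number as a block, all 12 libraries, and leaving out each library; the fits were tested on simulated data. Deviations from group means correlated at 0.26 to 0.48 for the 18 same-numbered pairs and −0.38 to −0.05 for the 36 others. The numbers were therefore taken to pair the samples in the fits with the block. The main fits and the permutation test left this pairing out. The study counts the samples of a group as cultures without saying whether their preparations were separate, and p-values measure the spread between these samples. Counting intervals are exact and cover counting error only. Gene lengths (GENCODE, NCBIM37) were matched by symbol for 12670 of 13720 genes averaging 1 CPM or more. Genes named are all 10 members, the listed partners past the threshold (at most 8), Top1 and the fixed markers. Up to 3 best-correlated genes are named for the 3 most abundant members. Adam22, Chl1, Kcna1, Kcna2, L1cam and Nfasc were added after their values were seen. Members and lists were chosen with earlier results of these data known.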

Additional observations from a re-analysis of the deposited data

Results flagged for a closer look

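Cntn1 and Cntn2 responded differently to topotecan in WT and Top1 cKO cells by the test of the difference itself, when the replicate number entered as a block. The difference between the drug's log2 fold changes (Top1 cKO minus WT) was 0.59 for Cntn1 and −1.20 for Cntn2. Without the block neither passed an FDR of 0.01 (edgeR adjusted p = 0.252 and 0.0316). In WT cells Cntn1 was 297.5 ± 32.1 CPM with and 660.9 ± 56.98 CPM without topotecan (SD, n = 3), and in Top1 cKO cells 339.9 ± 9.9 and 499.6 ± 49.8 CPM. Cntn2 was 92.8 ± 15.2 with and 48.1 ± 4.2 CPM without the drug in WT cells, and 52.4 ± 5.8 and 62.2 ± 10.8 CPM in Top1 cKO cells.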

How the results depend on the processing

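Of 10 members, the number called in WT-Topot against WT-Veh was 8, 4 with filterByExpr (Cntn2, Cntn3, Cntn5 and Cntnap4 lost) and 4 to 8 without 1 library, and the fit of all 12 libraries ended the call of Cntnap4 alone (adjusted p = 0.0122). With the replicate block it rose from 0 to 3 in Top1 cKO-Veh against WT-Veh, from 0 to 3 in Top1 cKO-Topot against Top1 cKO-Veh, from 0 to 1 in Top1 cKO-Topot against WT-Topot (1 also by DESeq2 and by edgeR's exact test), from 2 to 5 in WT-Topot against Top1 cKO-Veh (0 with filterByExpr, which dropped Cntnap2) and from 0 to 2 in the interaction (1 by DESeq2), and was 6 against 4 in Top1 cKO-Topot against WT-Veh. Without 1 library these numbers ran from 0 to 1 in Top1 cKO-Topot against Top1 cKO-Veh, 0 to 1 against WT-Topot, 0 to 3 in WT-Topot against Top1 cKO-Veh and 2 to 5 in Top1 cKO-Topot against WT-Veh. The block changed no call of a member in WT-Topot against WT-Veh. DESeq2 gave no adjusted p for Cntn4, Cntn5, Cntn6, Cntnap2 and Cntnap5a in the interaction and in Top1 cKO-Topot against Top1 cKO-Veh or WT-Topot. The same held for Cntn5 and Cntnap2 in WT-Topot against Top1 cKO-Veh and for Cntn6 in Top1 cKO-Topot against WT-Veh. Of the 19 partners, the block called 10 in WT-Topot against WT-Veh, 10 (7 without it) in Top1 cKO-Topot against WT-Topot, 4 in Top1 cKO-Veh against WT-Veh, 4 in Top1 cKO-Topot against Top1 cKO-Veh, 13 in WT-Topot against Top1 cKO-Veh, 4 in Top1 cKO-Topot against WT-Veh and 7 in the interaction. Over all genes the block called 1.53 to 5% lower and 0.858 to 4.6% higher.

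Directions changed only without 1 library and only for uncalled values, whose log2 fold changes ran from −1.02 to 0.19 for Cntn6 and −0.10 to 0.34 for Cntnap1 in WT-Topot against WT-Veh, from −0.24 to 0.0265 for Cntnap1 and −0.46 to 0.19 for Cntnap4 in Top1 cKO-Topot against Top1 cKO-Veh, from −0.11 to 1.13 for Cntn4, −0.78 to 0.55 for Cntn5, −1.16 to 0.0361 for Cntn6 and −0.12 to 0.26 for Cntnap1 in Top1 cKO-Topot against WT-Topot, from −0.36 to 0.0243 for Cntnap1 in WT-Topot against Top1 cKO-Veh, and from −0.0200 to 0.43 for Cntnap1 in Top1 cKO-Topot against WT-Veh. The cause of these changes was not tested. Counts under 100 in a group limit Cntn4, Cntn5, Cntn6, Cntnap2 and Cntnap5a, and a raised floor of 10 counts would take in most of their topotecan-treated libraries.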

Other observations

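The 3 relatives outside the family list, Cntnap3, Cntnap5b and Cntnap5c, were weakly expressed and passed edgeR's test in no comparison without the block, although Cntnap5b and Cntnap5c were lower in WT-Topot than in WT-Veh at an unadjusted p under 0.05. With the block 1 call was made, Cntnap3 lower in Top1 cKO-Topot than in WT-Veh (log2 fold change −1.31, edgeR adjusted p = 0.00807). Cntnap5b, at 713.2 kb, had 10.2, 3.94 and 8.64 CPM in WT-Veh and 2.01, 2.58 and 3.85 CPM in WT-Topot, which did not overlap (log2 fold change −1.45, edgeR adjusted p = 0.116). Cntnap5c, at 640.8 kb, had 2.93, 7.01 and 0.576 CPM and then 0, 0.859 and 0.856 CPM (edgeR adjusted p = 0.133). Cntnap3, the shortest at 166.3 kb, had 10.8, 9.64 and 17.3 CPM and then 7.04, 10.02 and 8.99 CPM (edgeR adjusted p = 0.700).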
